A study of Mus musculus with 12 samples.

Results

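The collagen family of the mouse colon is described here gene by gene. Its members were all protein-coding genes of the count table whose name is Col, a type number, the letter a and a chain number, which gave 44 of the 54532 genes. They were split into 11 fibrillar collagens, 6 type IV (basement membrane) collagens and 27 other collagens. A filter on low counts kept 36 of the 44 for testing, namely 10 fibrillar, 4 type IV and 22 other members. The filter uses group size only as a minimum number of libraries, so a gene high in 1 group can pass it.

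Collagens are proteins built from helices of 3 chains, and most are secreted. Some types, such as I, IV and VI, need chains from more than 1 gene. Fibrillar collagens (types I, III and V in most soft tissues) form the load-bearing fibrils of the submucosa and lamina propria and are made mainly by fibroblasts. Type IV collagen forms the sheet-like network of basement membranes under the epithelium and around vessels and smooth muscle, and type VI forms beaded filaments between fibrils and basement membranes. Fibril-associated collagens such as types XII, XIV and XVI sit on the surface of fibrils, and type VII anchors epithelial basement membranes to the stroma.

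RNA from colonic tissue of 12 wild-type male C57BL/6J mice was sequenced, 3 mice a group, and the labels give their age as 5 weeks. The control group had no colitis. Acute colitis was induced with dextran sulfate sodium (DSS) in the model group, and in the groups given Rhy (rhynchophylline) or dexamethasone (DXM, a glucocorticoid, 4 mg/kg) as well. The study used Rhy at 2, 4 and 8 mg/kg, and the labels do not give the dose of the sequenced Rhy mice. Totals were 14346478 to 17749716 counts a library, and collagen genes took 0.0531% (Rhy 1) to 0.311% (DXM 3) of them. Libraries stood apart in 3 ways. Model 1 and model 2 differed far less from each other than other libraries did (common dispersion 0.00201, against 0.0604 or more), the mitochondrial share ran from 6.33% to 25.7%, and Hoxb13, a gene of the distal colon, was at 0.165, 1.49 and 0 CPM (counts scaled to the size of the library) in control 3, model 3 and Rhy 1 and at 72 CPM or more in the other libraries. The labels list model 1 and model 2 as separate samples, but nothing in the sources used here shows that they are separate mice; if they are 1 mouse, the model group has 2, and the model-group tests and non-overlap counts below rest on that number. P-values measure the spread between these libraries only. In bulk tissue, fewer cells of a type and less RNA per cell cannot be told apart.

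Several members lie side by side in the genome (GRCm38; all 44 start and end where GENCODE M21 places them). Col3a1 (chr1:45311538-45349706, plus strand) and Col5a2 (chr1:45374321-45503282, minus strand) are 24.6 kb apart, and Col6a2 and Col6a1 on chromosome 10 are 85.2 kb apart. Col6a6, Col6a5 and Col6a4 follow each other on chromosome 9 with gaps of 27.9 and 28.8 kb. The 3 pairs of type IV genes are arranged head to head: Col4a3 and Col4a4 start 71 bases apart, Col4a5 and Col4a6 1308 bases apart, and Col4a1 (chr8:11198423-11312826, minus strand) and Col4a2 (chr8:11312805-11449287, plus strand) overlap by 22 bases at their starts. Those 22 bases, in the first exon of both genes, are shown in capitals on the plus strand (chr8:11312801-11312830), because the 2 chains assemble into the same type IV molecule.
Col4a1 and Col4a2 shared start: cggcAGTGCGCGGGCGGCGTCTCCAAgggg
The 250 bases before the starts of Col3a1, Col5a1 and Col6a3 are shown because these members were all higher in DXM than in model and have very different base composition (RefSeq, GRCm38.p6, each 5′ to 3′ on the gene's strand). They lie at chr1:45311288-45311537 (plus), chr2:27886175-27886424 (plus) and chr1:90843972-90844221 (minus). Capitals mark TATAAA and GGGCGG on either strand; CCAAT was searched as well and is absent from all 3.
Col3a1: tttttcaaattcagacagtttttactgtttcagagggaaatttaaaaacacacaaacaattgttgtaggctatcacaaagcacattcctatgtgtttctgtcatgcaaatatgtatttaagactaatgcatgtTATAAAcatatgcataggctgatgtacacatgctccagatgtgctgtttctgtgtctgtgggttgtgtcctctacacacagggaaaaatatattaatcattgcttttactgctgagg
Col5a1: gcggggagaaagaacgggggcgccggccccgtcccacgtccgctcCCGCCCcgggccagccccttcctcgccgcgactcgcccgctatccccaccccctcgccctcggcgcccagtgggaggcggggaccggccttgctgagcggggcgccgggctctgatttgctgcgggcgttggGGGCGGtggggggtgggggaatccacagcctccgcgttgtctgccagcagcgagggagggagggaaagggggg
Col6a3: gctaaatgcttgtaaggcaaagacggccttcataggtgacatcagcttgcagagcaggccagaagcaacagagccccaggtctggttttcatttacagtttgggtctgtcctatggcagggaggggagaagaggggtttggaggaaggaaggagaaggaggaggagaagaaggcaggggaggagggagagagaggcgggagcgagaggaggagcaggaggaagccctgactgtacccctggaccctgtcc
The GC content of these stretches was 35.2% for Col3a1, 76.4% for Col5a1 and 57.2% for Col6a3. RefSeq start windows (250 bases before to 50 after) were found for 35 of the 44 members, 38 windows in all. GGGCGG on either strand was in 23 of the 38 (60.5%) and in 35.7% of all 32851 windows. CCAAT was in 13 (34.2%, all windows 37.4%) and TATAAA in 5 (13.2%, all windows 13.6%). These matches describe letters, not bound sites.

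Levels between genes were compared as the authors' FPKM (counts divided by gene length and library size), averaged over the 12 libraries. Col3a1, the single chain of type III collagen, was highest at 39.7 FPKM and made up 21.9% of the summed FPKM of the 44 genes. Col6a1 followed at 24.3, Col4a1 at 17.4, Col1a1 at 16.6, Col4a2 at 13.99, Col1a2 at 13.4 and Col6a2 at 10.2 FPKM. Those 7 genes held 74.8% of the sum. By class, fibrillar members held 45.7%, type IV 18.8% and others 35.5%. At the other end, 8 members did not pass the filter. Over all 12 libraries Col4a4 had 78 counts, Col4a3 44, Col9a1 26, Col26a1 25, Col6a6 13, Col10a1 6, Col19a1 6 and Col2a1, the fibrillar collagen of cartilage, 1. The type IV chains of the colon samples were therefore Col4a1, Col4a2 and, at lower level, Col4a5 (2.03 FPKM) and Col4a6 (0.723 FPKM).

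**Figure D1:**
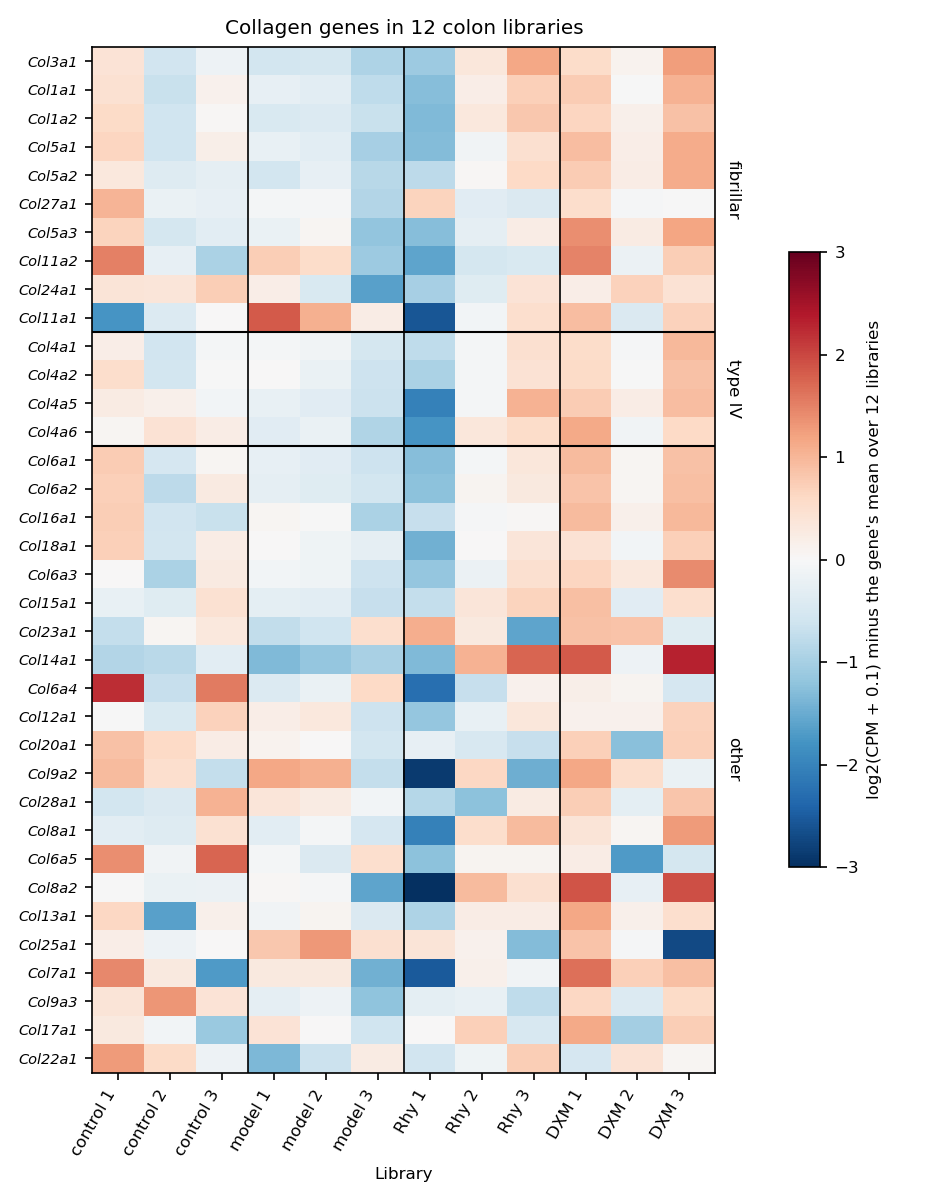
Each row is 1 of the 36 tested collagen genes (fibrillar, type IV and other from the top, each by falling mean FPKM), each column 1 library, and the colour is log2(CPM + 0.1) minus the gene's mean over the 12 libraries. The Rhy 1 column is blue for most genes (lowest library for 22 of 36), and the DXM 1 and DXM 3 columns are red for most (highest for 7 and 13).

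Rhy 1 was the lowest library for 22 of the 36 tested members, and DXM 3 and DXM 1 the highest for 13 and 7. Against the range of the 3 model libraries, DXM 1 was above it for 28 members, DXM 2 for 21 and DXM 3 for 29, whereas Rhy 1 was below it for 26, Rhy 2 above for 16 and Rhy 3 above for 22. For these members the Rhy mice thus lay on both sides of the model mice. No share of all genes is given beside these counts of places. They are therefore not read as a result about collagens in particular. Among members with a mean above 2 FPKM, Col15a1 spanned the least from its lowest to its highest library, 3.1-fold, and Col4a5 the most, 8.61-fold.

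The summed FPKM of each class gave 1 value a mouse. The fibrillar sum was 105, 50.7 and 73.1 in control, 54.2, 54.5 and 40.8 in model, 34.7, 87.6 and 139.6 in Rhy, and 117.3, 78.4 and 157.8 in DXM. The type IV sum was 23.6 to 41.2 in control, 21.2 to 30.4 in model, 17.2 to 45.6 in Rhy and 31.4 to 60.1 in DXM. The sum of the others was 42.3 to 92.9, 40.6 to 50.7, 29.2 to 71.7 and 59.8 to 105.8. In all 3 classes every DXM mouse was above every model mouse, and the Rhy range covered the whole model range. The differences between DXM and model were 2.29-fold, 1.71-fold and 1.88-fold (fibrillar, type IV, other), each with an exact two-sided permutation p of 0.1, the smallest that 3 mice against 3 allow. Over all 4 groups the exact permutation p was 0.241, 0.314 and 0.212 (0.404 for each after Benjamini-Hochberg adjustment over 9 measures), so no class passed over the 4 groups.

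**Figure D2:**
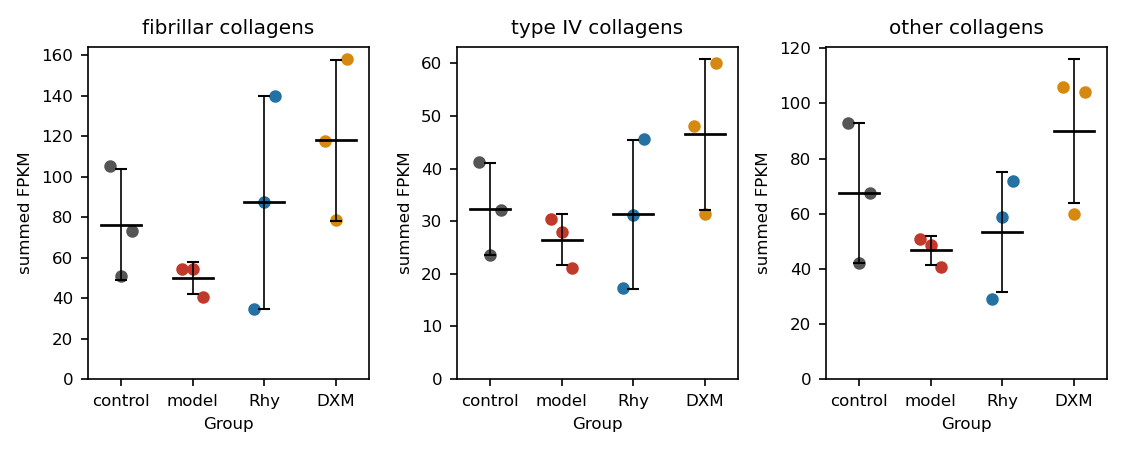
Summed FPKM of the fibrillar, type IV and other collagens for each mouse (points), with the group mean (line) and SD (bars, n = 3). The 3 DXM mice lie above the 3 model mice in each panel, and the Rhy mice spread from below to above the model mice.

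The comparison of DXM with model asked how collagen genes stood in colitis treated with the glucocorticoid. Of the 36 members, 31 had a higher fitted level in DXM, with a median log2 fold change of 0.90 (all tested genes: -0.01). By unadjusted p under 0.05, 14 members (38.9%) were higher and 0 lower, where 4.89% of the 16904 genes were higher and 2.8% lower. The groups did not overlap for 18 members (50.0%), all higher in DXM, against 10.4% of all genes higher and 12.2% lower. After adjustment over all genes, edgeR called 0 members and 0% of all genes (smallest adjusted p among members 0.622). DESeq2 called 17 members unadjusted and 1 adjusted (Col14a1, adjusted p = 0.0159), and limma on log2(FPKM + 1) called 12 and 0. The unadjusted count moved with single libraries, from 3 to 17 when 1 was left out. It was 3 without model 3, 4 without DXM 3, 6 without DXM 1 (5 higher and 1 lower) and 8 without model 2. With model 1 and model 2 counted as 1 library it was 8. Here and below, counts under alternatives come without the share of all genes unless it is stated. Such counts are not read as a result about collagens in particular. The median stayed between 0.75 and 1.10 when each library was left out in turn, and was 0.43 by limma on log2(FPKM + 1).

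Of the fibrillar chains, 6 passed the unadjusted test, all higher in DXM by similar factors, and none passed after adjustment. Col3a1 was 236, 238 and 184 CPM in model and 509, 371 and 828 in DXM, beside 463, 231 and 313 in control and 163, 440 and 768 in Rhy. All DXM values were above all model values, with a log2 fold change of 1.38 (SE 0.48, adjusted p = 0.622). Col1a1 and Col1a2, whose chains join in type I collagen, were 84.2, 79.9 and 58.9 CPM and 112, 115 and 97.0 CPM in model. In DXM they were 169.8, 99.6 and 205 CPM and 238, 171 and 284 CPM, again without overlap. Their log2 fold changes were 1.09 and 1.10 (SE 0.45 for both, adjusted p = 0.637 for both). Type V collagen sits inside type I fibrils and sets their diameter. Col5a1 went from 32.9, 31.1 and 19.4 to 73.8, 44.01 and 84.2 CPM (1.28, SE 0.44), Col5a2 from 27.9, 34.3 and 23.0 to 68.8, 47.3 and 88.5 CPM (1.26, SE 0.35), and Col5a3 from 6.73, 8.13 and 3.40 to 20.6, 9.30 and 17.7 CPM (1.38, SE 0.48). None of the 3 overlapped between groups, and each had an adjusted p = 0.622. Col5a2 passed the unadjusted test in all 15 alternative settings, and Col3a1 in all but the one without DXM 3. The rest of the class did not pass: Col27a1 was 0.45 (SE 0.40), Col11a2 0.58 (SE 0.69), Col24a1 0.99 (SE 0.56) and Col11a1 -0.78 (SE 0.84) on the log2 scale.

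All 4 tested type IV chains were higher in DXM, by 0.77 to 1.09 on the log2 scale, and only Col4a1 passed the unadjusted test. Col4a1 was 119, 115 and 85.9 CPM in model and 182, 121 and 244 in DXM, beside 142, 84.0 and 120 in control and 72.9, 120.1 and 174 in Rhy. The lowest DXM mouse was just above the highest model mouse, and the log2 fold change was 0.77 (SE 0.34, adjusted p = 0.642). Col4a2 was 88.1, 76.3 and 56.8 CPM in model and 131, 87.1 and 163 in DXM, so the groups overlapped by 1 mouse (0.78, SE 0.37, adjusted p = 0.655). Col4a5 and Col4a6 did not overlap between groups (1.07 and 1.09, SE 0.53 and 0.51). Col4a1 passed in only 5 of its 15 alternatives.

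Among type VI genes the chains fell into 2 sets. Col6a1, Col6a2 and Col6a3, the chains of the common form, were higher in every DXM mouse than in every model mouse and passed the unadjusted test. Col6a1 was 82.6, 77.1 and 64.2 CPM in model and 189.7, 101.7 and 179 in DXM (1.07, SE 0.41), Col6a2 65.1, 60.4 and 53.7 and then 142, 81.4 and 147 (1.05, SE 0.42), and Col6a3 36.0, 35.0 and 24.8 and then 60.2, 47.8 and 103 (1.14, SE 0.43). The adjusted p of all 3 was 0.637. Col6a4 and Col6a5, which can stand in for Col6a3, were not higher in DXM. Col6a4 was 8.38, 9.59 and 16.9 CPM in model and 12.5, 11.7 and 7.85 in DXM (-0.13, SE 0.65), and Col6a5 3.81, 2.91 and 5.72 and then 4.66, 1.157 and 2.74 (-0.55, SE 0.59). The sign of Col6a4 was not stable: it was 0.26 without model 3, 0.054 without DXM 3 and 0.26 with the 9 libraries above 5 CPM of Hoxb13. Col6a4 and Col6a5 were chosen after their values were seen.

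Col14a1, a fibril-associated collagen of mature connective tissue, had the smallest p of all members in this comparison. It was 3.31, 3.70 and 4.29 CPM in model, 30.5, 7.62 and 42.0 in DXM, 4.57, 4.798 and 6.75 in control, and 3.34, 17.5 and 28.4 in Rhy. Every DXM mouse was above every model and every control mouse, DXM 2 by the least. The log2 fold change against model was 2.82 (SE 0.70, adjusted p = 0.622), and it passed the unadjusted test in all 15 alternatives, between 1.47 and 3.26. Col16a1, also fibril-associated, was 36.9, 35.4 and 18.2 CPM in model and 69.1, 39.6 and 69.9 in DXM (0.98, SE 0.41, adjusted p = 0.637). Col12a1, the relative of Col14a1 that stretches between fibrils, was 23.1, 25.1 and 13.1 CPM in model and 22.1, 22.0 and 32.4 in DXM, and did not pass (0.32, SE 0.40, adjusted p = 0.847). Of the basement membrane-zone multiplexins, Col15a1 was 12.9, 12.7 and 9.83 and then 29.7, 12.5 and 22.5 CPM (0.87, SE 0.39, adjusted p = 0.646, overlapping), and Col18a1, the source of endostatin, 31.7, 28.5 and 25.9 and then 42.7, 29.8 and 51.5 (0.53, SE 0.41, adjusted p = 0.752). Col7a1, the anchoring fibril chain, was 1.82, 1.82 and 0.477 and then 4.8, 2.46 and 2.84 CPM (1.28, SE 0.83, adjusted p = 0.701), and Col17a1 of hemidesmosomes stayed under 1.5 CPM in every library (0.59, SE 0.69, adjusted p = 0.84). Col8a2, chosen after its values were seen, was also among the 14 (1.92, SE 0.85, adjusted p = 0.645, overlapping).

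**Figure D3:**
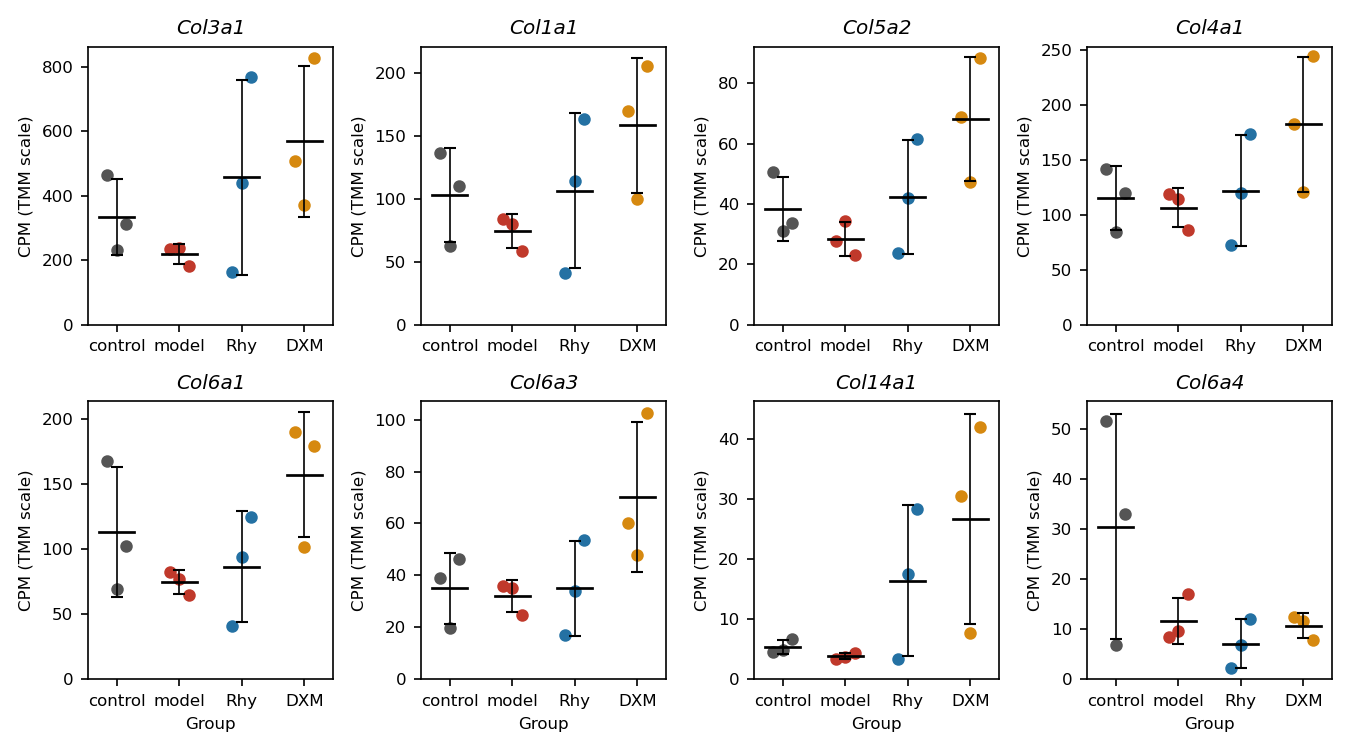
CPM of 8 collagen genes for each mouse (points) with group mean (line) and SD (bars, n = 3), each panel on its own scale from 0. DXM mice lie above model mice for all but Col6a4, whose highest values are in control 1 (51.7) and control 3 (33.0).

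The comparison of model with control asked how collagen genes stood in acute colitis itself. Of the 36 members, 32 had a lower fitted level in model, with a median log2 fold change of -0.44 (all genes 0.01). Only 1 member was lower and 1 higher by unadjusted p under 0.05 (all genes 4.51% and 5.11%), a share near the background. That count of 2 became 1 without control 1 or model 2 and 4 without model 3, and the median became -0.21 without control 1. The groups did not overlap for 6 members lower in model and 2 higher (all genes 6.61% and 10.4%). After adjustment edgeR called 0 members and 0% of all genes (smallest adjusted p among members 0.488), and neither DESeq2 (4 members unadjusted) nor limma (2 unadjusted) called any. Col9a3, a chain of a cartilage-type fibril-associated collagen, was 0.749, 1.53 and 0.769 CPM in control and 0.441, 0.485 and 0.179 in model (-1.44, SE 0.57, adjusted p = 0.488). Its counts were 10, 22 and 14 in control and 8, 8 and 3 in model. Outside control only DXM 1 (13 counts) and DXM 3 (17 counts) reached the filter's minimum count of 10. Col9a3 thus passed the filter through control, where it was high, and its test is no support for a lower level in model. Col11a1, a minor fibrillar chain, was 0.0749, 0.348 and 0.494 CPM in control and 2.04, 1.15 and 0.596 in model (1.99, SE 0.90, adjusted p = 0.516), and is at a depth of a few counts a library in control. The abundant chains overlapped between the groups: Col3a1 was -0.61 (SE 0.48), Col1a1 -0.47 (SE 0.44), Col1a2 -0.59 (SE 0.44), Col5a1 -0.63 (SE 0.44) and Col4a1 -0.11 (SE 0.34), with adjusted p from 0.665 to 0.938. The controls were themselves spread, with Col3a1 highest in control 1 and Col6a4 51.7, 6.88 and 33.0 CPM.

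The comparison of Rhy with model asked the same of colitis treated with Rhy. Of the 36 members, 25 were higher and 11 lower, with a median of 0.19 (all genes -0.01). By unadjusted p under 0.05, 2 members were higher and 0 lower (all genes 1.74% and 1.98%), and the groups did not overlap for 0 members higher and 1 lower (all genes 5.51% and 6.02%). After adjustment edgeR called 0 members and 0% of all genes (smallest adjusted p among members 1), and neither DESeq2 (2 members unadjusted) nor limma (0 unadjusted) called any. The 2 members were Col14a1 (2.13, SE 0.69, adjusted p = 1) and Col3a1 (1.06, SE 0.48, adjusted p = 1), and in both Rhy 1 lay within or below the model range while Rhy 2 and Rhy 3 lay above it. For Col1a1 the Rhy mice were at 41.4, 114 and 163.5 CPM, 1 below and 2 above all model mice (0.52, SE 0.44, adjusted p = 1). Without Rhy 1 the count was 9 of 36 (6.13% of all genes in either direction) and the median 0.42. Without Rhy 3 the count was 1, the median -0.13, and Col5a1, Col4a1, Col4a2, Col6a1, Col6a2 and Col6a3 turned to negative values. Without model 1, model 2 or model 3 the count was 1. Rhy 1 also had no Hoxb13 count, the lowest collagen share and the lowest total; their part in the result was not tested. With the 9 libraries above 5 CPM of Hoxb13 the count was 6, all genes in either direction 8.42%.

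**Figure D4:**
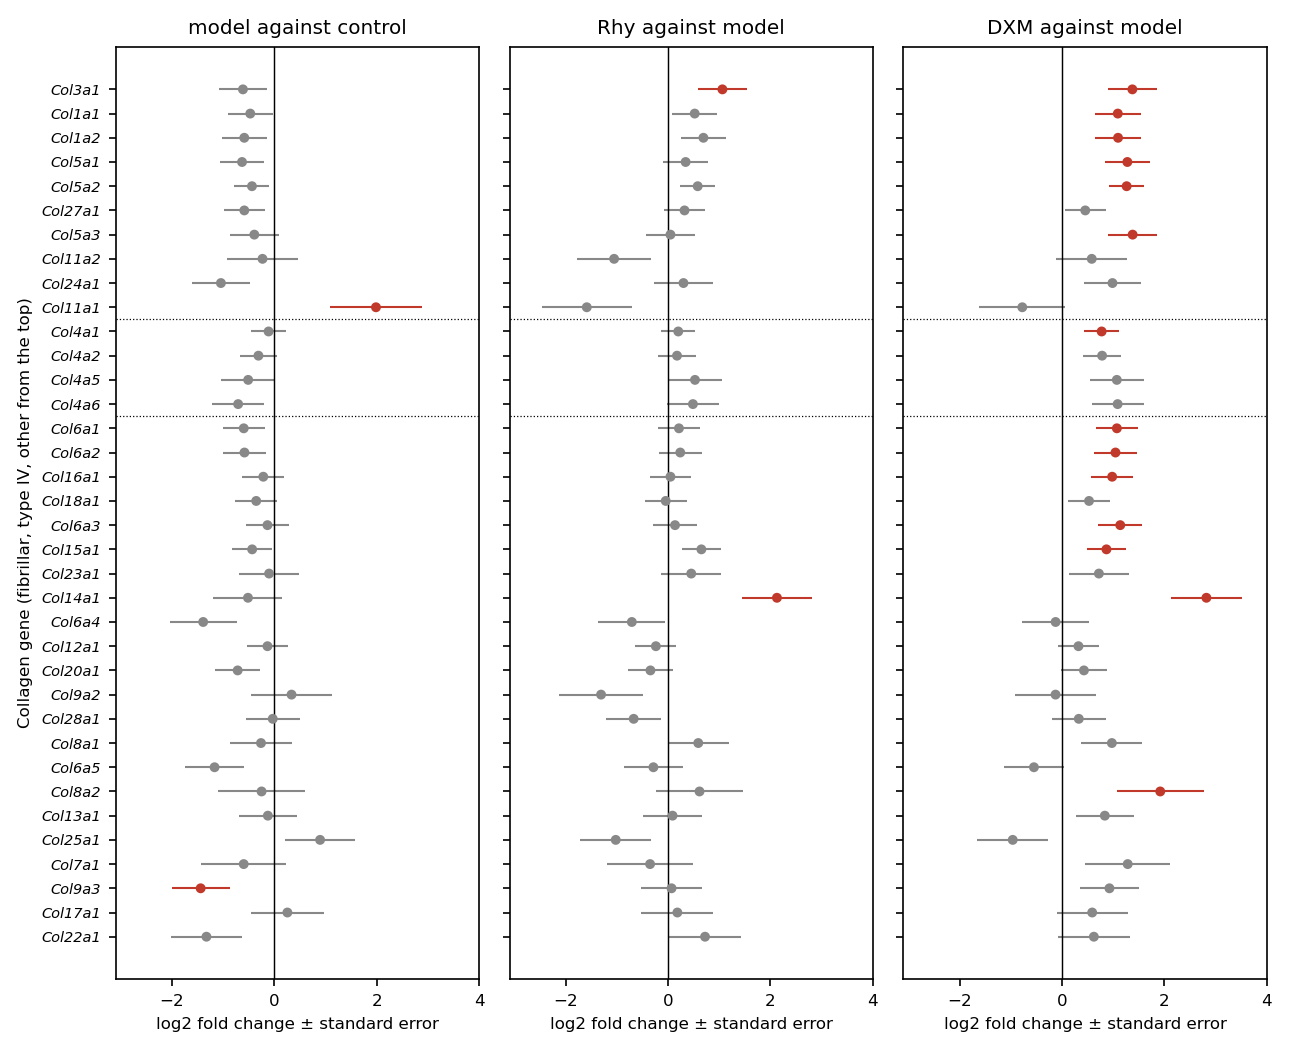
Fitted log2 fold change (points) and standard error (bars) of the 36 tested collagen genes in 3 comparisons, ordered as fibrillar, type IV and other members. Red marks an unadjusted p under 0.05 (2, 2 and 14 genes); points lie mostly left of 0 for model against control (32 of 36) and right of 0 for DXM against model (31 of 36).

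The remaining comparisons share their samples with those above, so their values are given side by side and not as separate support. Against control, DXM members had a median of 0.49, with 3 higher and 2 lower by unadjusted p (all genes 8.68% and 10.2%; adjusted 0%). The higher ones were Col14a1 (2.31), Col5a2 (0.83) and Col6a3 (1.00), and the lower ones Col6a5 (-1.72) and Col6a4 (-1.52). Against control, Rhy members had a median of -0.20 (0.054 without control 1 and 0.0081 without Rhy 1), with 1 higher (Col14a1, 1.61) and 4 lower (Col6a4, Col6a5, Col9a3 and Col20a1, -2.10, -1.46, -1.37 and -1.06), where all genes gave 6.46% and 5.09% (adjusted 0%). DXM members were above Rhy members with a median of 0.65 and 4 higher, Col5a3, Col6a3, Col16a1 and Col11a2, and 0 lower (all genes 2.8% and 2.21%; adjusted 0%), but that count ran from 0 (without Rhy 1) to 12 (without Rhy 3). Several of these genes were outside the rule for named genes and are given after their values were seen. Col9a3 passed the count filter through the control libraries, so its lower level in Rhy is no support either. The smallest adjusted p among members by edgeR was 0.138 for DXM against control, 0.364 for Rhy against control and 0.83 for DXM against Rhy. DESeq2 called Col14a1 and Col6a5 adjusted in DXM against control (adjusted p = 0.0153 and 0.042). The share of all genes that DESeq2 called there is not given, so these calls are not read as particular to collagens.

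Ratios of chains that assemble together were steadier than the levels. Col1a1 to Col1a2 in FPKM was 1.10 to 1.42 over the 12 libraries, Col4a1 to Col4a2 0.996 to 1.41 and Col6a1 to Col6a2 2.05 to 2.93, while the genes themselves spanned 3.35-fold to 4.95-fold. FPKM divides by the length of all exons of a gene, so a ratio away from 1 carries that length too. None of these 3 passed an exact permutation test over the 4 groups (p = 0.616, 0.171 and 0.897). The ratio of Col3a1 to Col1a1 was 1.90 to 2.47 in control, 1.87 to 2.09 in model, 2.57 to 3.14 in Rhy and 2.00 to 2.70 in DXM. All Rhy mice were above all model and all control mice, including Rhy 1 whose levels were low (4-group exact permutation p = 0.0479, adjusted 0.404 over 9 measures; Rhy against model 1.4-fold, exact p = 0.1). The type IV share of summed collagen FPKM was 20.6% to 22.5% in model, 17.2% to 20.2% in control, 17.6% to 21.2% in Rhy and 17.7% to 18.6% in DXM. The model mice were above the control and the DXM mice, with an exact p of 0.1 for each pair and 0.101 over the 4 groups.

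Genes that make and handle collagen were counted from lists drawn up beside the members, by unadjusted p under 0.05. By this rule 4.89% of all genes were higher and 2.8% lower in DXM against model, 5.11% and 4.51% in model against control, and 1.74% and 1.98% in Rhy against model, and edgeR called 0 genes after adjustment in each. In DXM against model, all 10 tested genes of procollagen processing and crosslinking were higher, 8 by unadjusted p under 0.05 (median 1.195). Lox and Loxl1, oxidases that start crosslinks, were 1.27, 1.34 and 2.32 and then 6.38, 3.47 and 6.33 CPM (1.71, SE 0.47), and 11.4, 10.98 and 6.61 and then 43.3, 13.5 and 48.7 CPM (1.86, SE 0.56). Of 19 folding and modification genes, 15 were higher and 6 passed, led by Serpinh1, the collagen chaperone, at 61.3, 61.6 and 58.3 and then 111.8, 87.5 and 229 CPM (1.24, SE 0.37). Of 15 basement membrane partners, 7 passed higher and 1 lower, with Lama2, the laminin chain of muscle, at 1.88 (SE 0.51). Of 10 collagen receptors, Mrc2, which takes up collagen, was among 2 higher (1.02) and the epithelial kinase Ddr1 was lower (-0.65). In model against control, all 10 processing genes were lower and 3 passed (median -0.75), and 0 of 19 folding genes passed. In Rhy against model, 1 processing gene, 0 folding genes, 0 receptors and 1 basement membrane partner passed.

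Cell type markers were counted by the same unadjusted rule, so the same shares of all genes apply, and 0 passed after adjustment. The summed CPM of 11 fibroblast markers was 426.8 to 432 in model, 702 to 1632 in DXM, 458 to 557 in control and 318, 954 and 1137 in Rhy. In DXM against model all 11 were higher and 8 passed (median 1.58). In Rhy against model 9 of 11 were higher and 6 passed. The 14 smooth muscle markers summed to 5508 to 7044 CPM in model and 7522 to 12770 in DXM, with 14 higher and 6 passing. All 7 macrophage and 8 of 9 endothelial markers were higher too, with 4 passing in each list. All 4 tested neutrophil markers were higher and 1 passed (median 2.12). All but 1 of the listed neutrophil markers stayed at or under 4.66 CPM in every library, so this median rests largely on low counts. Of the mural and pericyte markers, 5 of 6 were higher and 2 passed, and 4 of 6 B and plasma and 3 of 6 T cell markers were higher with 0 passing. All 5 tested fat markers were lower (median -1.25) and 6 of 8 enteric glia and neuron markers were lower (median -0.29), with 0 passing. The summed CPM of the fat list was 21.2, 21.9 and 227.7 in model and 59.5, 65.5 and 41.3 in DXM. In this sum every DXM library was thus above model 1 and model 2, and only model 3 was above the DXM libraries. Single genes of the list did not all follow the sum. The part of model 3 in their lower fitted levels was not tested. The mesothelial and pancreatic acinar lists had 1 tested gene each, which did not pass in DXM against model. The acinar gene did pass as higher against control, in model (0.99), Rhy (1.06) and DXM (1.46), comparisons that share the control libraries. The 11 epithelial markers summed to 25330 to 36170 CPM in model and 19840 to 33510 in DXM, with 9 lower and 1 passing. In Rhy against model, 13 of 14 smooth muscle and all 7 macrophage markers were higher, with 1 passing in each list. All 6 T cell and 6 of 8 enteric markers were lower there, with 1 passing in each. In model against control, 10 of 11 fibroblast (0 passing), all 11 epithelial and all 7 macrophage markers (2 passing in each) were lower. All 4 tested neutrophil markers were lower there too (median -1.31, 1 passing), with the same limit of low counts. So were all 6 T cell and 7 of 9 endothelial markers, with 0 passing in each list. By contrast, 7 of 8 enteric (1 passing) and 4 of 5 tested fat markers (0 passing) were higher in model. The fat sum was 17.2, 90.8 and 37.5 CPM in control, beside the model sums given above. Of the 14 smooth muscle markers 12 were higher with 0 passing, but their median was only 0.043 (all genes 0.006). Their sum was 9020, 5360 and 4722 CPM in control, a range that covered the model sums. No fibroblast or smooth muscle marker was at 0 in any library. Rhy 1, lowest for most collagens, had the lowest fibroblast sum but a smooth muscle sum of 8588 CPM, above all model mice. The part of cell makeup in the collagen differences was not tested.

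**Figure D5:**
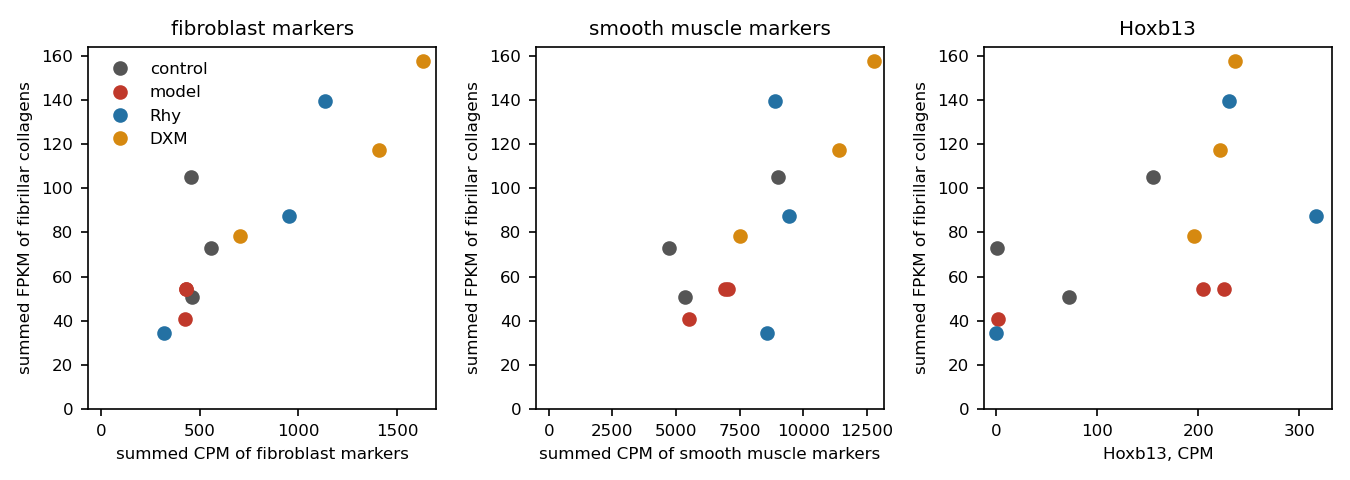
Summed FPKM of fibrillar collagens against the summed CPM of fibroblast markers, of smooth muscle markers, and Hoxb13 CPM, 1 point a library coloured by group. DXM 3 and DXM 1 have the highest fibroblast marker sums (1632 and 1410), Rhy 1 the lowest (318); 3 libraries, 1 each of control, model and Rhy, lie near 0 for Hoxb13.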

How the data were processed

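RNA of colonic tissue from 12 mice was sequenced, and the labels place 3 mice in each of 4 groups. The deposited gene counts are raw whole numbers, and per the labels' processing notes HISAT2 2.0.5, featureCounts 1.5.0-p3 and DESeq2 1.16.1 were used with mm10; their roles and settings, strand included, are not given in the sources used here. The authors' deposited FPKM values are those counts divided by gene length and a scaled library size. Of the 44 members, 13 share some exon bases with another gene and 0 share over 10% of them.

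The tests on counts used edgeR 4.0.16 under R 4.3.3 (scaled by TMM, filterByExpr with a minimum count of 10, glmQLFit and glmQLFTest, two-sided, all 12 libraries in 1 fit, Benjamini-Hochberg adjustment over the 16904 genes tested; SE from the F statistic). CPM values are on the TMM scale. Exact permutation tests of FPKM sums and ratios used all 369600 arrangements of the libraries. DESeq2 1.42.0, limma 3.58.1 with pseudocounts of 1 and 0.1, other scaling and filters, the replicate number as a block and leaving out each library were alternatives. The tests were checked on simulated data. Named genes were a fixed set of 16 abundant or well-known members plus up to 12 with the smallest unadjusted p under 0.05 in each of the 3 comparisons with model, and at most 3 genes at the ends of each other list; exceptions are stated, and 1 listed gene is not reported here by name. The members and lists were chosen with earlier results of these data known. Replicate numbers were not treated as pairs of mice in the main fit. Correlations of deviations between same-numbered libraries were -0.31 to 0.36, and between others -0.41 to 0.40. Such overlapping ranges cannot exclude that the numbers pair some mice.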

Additional observations from a re-analysis of the deposited data

How the results depend on the processing

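Medians over the members moved by less than the SD between libraries of a group (0.521), which is wide beside most of them. Over all alternatives but those leaving out 1 library, the median was -0.50 to -0.21 for model against control, 0.065 to 0.33 for Rhy against model, 0.43 to 0.98 for DXM against model, -0.25 to 0.093 for Rhy against control, 0.24 to 0.50 for DXM against control and 0.38 to 0.68 for DXM against Rhy. Leaving out 1 library gave -0.59 to -0.21, -0.13 to 0.42, 0.75 to 1.10, -0.54 to 0.054, 0.28 to 0.78 and 0.39 to 0.97 in the same order, so the sign was not stable for Rhy against model or Rhy against control. Counts of members at unadjusted p under 0.05 moved more. The share of all genes under the same alternatives is not given beside them, here or in the next paragraph. These counts are therefore not read as a result about collagens in particular. With the replicate block they were 1 for model against control and 1 for Rhy against model (2 without it for each). For DXM against control the count with the block was 3 (5 without it). The block changed no other count by over 1.5 times, and whether the numbers pair the mice is not known. DESeq2 gave 4 for model against control and 7 for DXM against Rhy, and adjusted calls of 1 and 2 for DXM against model and control. Counting model 1 and model 2 as 1 library gave 1, 1 and 8 for model against control, Rhy against model and DXM against model. Fitting only the groups compared gave 1 for Rhy against model, and limma gave 0 there with either pseudocount and 2 for DXM against control with 0.1. Keeping genes with any count gave 9 for DXM against control and 9 for DXM against Rhy. The 9 libraries over 5 CPM of Hoxb13, an alternative chosen after seeing the data, gave 6 for Rhy against model and 2 for DXM against Rhy, and turned Col4a1 (0.0142), Col6a3 (0.24) and Col12a1 (0.44) positive in model against control and Col18a1 (0.28) in Rhy against model. The cause was not tested.

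Leaving out 1 mouse at a time gave counts of 1 to 4 for model against control, 1 to 9 for Rhy against model, 3 to 17 for DXM against model, 1 to 5 for Rhy against control, 2 to 7 for DXM against control and 0 to 12 for DXM against Rhy. Values that crossed 0 were, in model against control, Col4a1 (-0.29 to 0.064), Col6a3 (-0.42 to 0.093), Col12a1 (-0.36 to 0.21), Col17a1 (-0.15 to 0.64) and Col7a1 (-1.13 to 0.35). In Rhy against model they were Col5a1 (-0.11 to 0.70), Col4a1 (-0.14 to 0.46), Col4a2 (-0.17 to 0.47), Col6a1 (-0.15 to 0.55), Col6a2 (-0.044 to 0.57), Col6a3 (-0.32 to 0.46), Col12a1 (-0.64 to 0.066), Col18a1 (-0.41 to 0.32), Col17a1 (-0.28 to 0.49) and Col7a1 (-0.78 to 0.12). In DXM against model Col6a4 crossed 0 (0.26 without model 3, 0.054 without DXM 3, 0.26 with the Hoxb13 libraries); the members always named did not. The 4-group exact permutation p of the Col3a1 to Col1a1 ratio was 0.018 to 0.149 without each mouse, 0.108 with model 1 and model 2 as 1 library and 0.11 with the Hoxb13 libraries; that of the type IV share was 0.0201 to 0.263, lowest without Rhy 1.

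With 3 mice a group, a two-sided exact test of 1 value cannot go below 0.1, and members under 1 CPM rest on a few counts a library.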
